A study of Mus musculus with 33 samples.

Results

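Control endothelium of the adult mouse liver was compared with control endothelium of the whole E13.5 mouse fetus, across all genes and across open chromatin. The comparison used the RNA and ATAC control samples of these 2 sources, 7 of the 33 samples of the series: 2 liver and 1 E13.5 RNA library, and 2 liver and 2 E13.5 ATAC libraries. The H3K4me1 and input samples of E13.5 control cells, which have no liver counterpart among the samples used here, were not used. All carried the Ctrl genotype (CKI/CKI or CKI/+), that is, knock-in copies that can express Runx1 without a Cre recombinase named to switch them on, on a C57BL/6J-129Sv/J background. Liver donors were 4 to 6 weeks old, were described as females and had received 2 mg tamoxifen by gavage, with no interval given. Fetuses came from dams injected intraperitoneally with 2 mg tamoxifen 24 h before harvest. Cells of both sources were sorted as CD31+ VE-cadherin+ c-Kit low or positive and negative for CD41, CD45 and Ter119, so blood cells were gated out by surface protein and each library stands for the c-Kit-bearing part of the endothelium. ATAC-seq, which maps open chromatin by transposase insertion, used 50000 cells a library. Organ, age, tamoxifen route and the sex make-up of the donors changed together between the 2 sources and cannot be told apart. The labels do not say whether replicates were separate animals, so the tests speak only to the variation among the libraries at hand, which may be technical.

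Liver sinusoidal endothelium is a discontinuous, fenestrated lining without an organised basement membrane. It clears circulating waste through scavenger receptors, makes coagulation factor VIII, and sends Wnt, R-spondin, BMP and HGF signals to hepatocytes. The endothelium of a whole midgestation fetus is a mixture from every organ, including the brain, lung, heart, limb and the fetal liver itself, and much of it is dividing.

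The RNA libraries held 38649975 and 39468230 recovered reads in liver and 43417385 at E13.5. Values are RPKM (reads scaled by transcript length and library size), and a difference is liver minus E13.5 in log2(RPKM + 1), given ± its standard error from limma. That error rests on the spread of all 13 RNA libraries of the series, because E13.5 Ctrl had 1 library. A gene was called at a Benjamini-Hochberg adjusted p below 0.05. The E13.5 replicate pairs that carried added Runx1 differed more between replicates than the liver pair (SD of the log2 difference 0.246 and 0.236 against 0.155), so an error pooled over stages may be too small for E13.5. The deposited scaling also moved the groups apart: scaling by read total alone shifted the median difference of all genes from 0.02 to −0.35.

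The sex-linked genes did not match the liver label. Xist, the X-inactivation RNA of female cells, was at 0.00523 and 0.00338 RPKM in the liver Ctrl libraries and at 6.34 at E13.5. The Y-linked Ddx3y was at 37.1 and 37.0 RPKM in liver and at 6.67 at E13.5, and Eif2s3y at 35.4 and 35.4 against 7.19. The liver libraries labelled as female thus carried Y-linked RNA and almost no Xist, and the E13.5 library held both. X-linked Eif2s3x and Kdm5c were lower in liver (−1.28 ± 0.18 and −0.86 ± 0.12), and the part of donor sex in other differences was not tested.

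Most of the measured genes differed between the 2 endothelia. Of 12546 tested genes, 9944 were called (79.3%), 5097 higher in liver (40.6%) and 4847 lower (38.6%). At least 2-fold, 2303 were higher (18.4%) and 2191 lower (17.5%), 35.8% in all, and at least 8-fold, 322 were higher (2.57%) and 284 lower (2.26%). With read-total scaling the split of calls became 3433 higher and 6633 lower. Between the 2 liver replicates 33 genes differed by at least 2-fold (0.263%), and between the replicates of the E13.5 pairs 91 (0.725%) and 83 (0.662%). For 4469 of the 4494 genes called at 2-fold or more (99.4%), both liver Ctrl libraries lay outside the range of all 5 E13.5 libraries of any genotype, as they did for 83.1% of all tested genes. Since so many genes were called, the lists below are read against these shares, and mainly by their 2-fold and 8-fold counts.

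**Figure D1:**
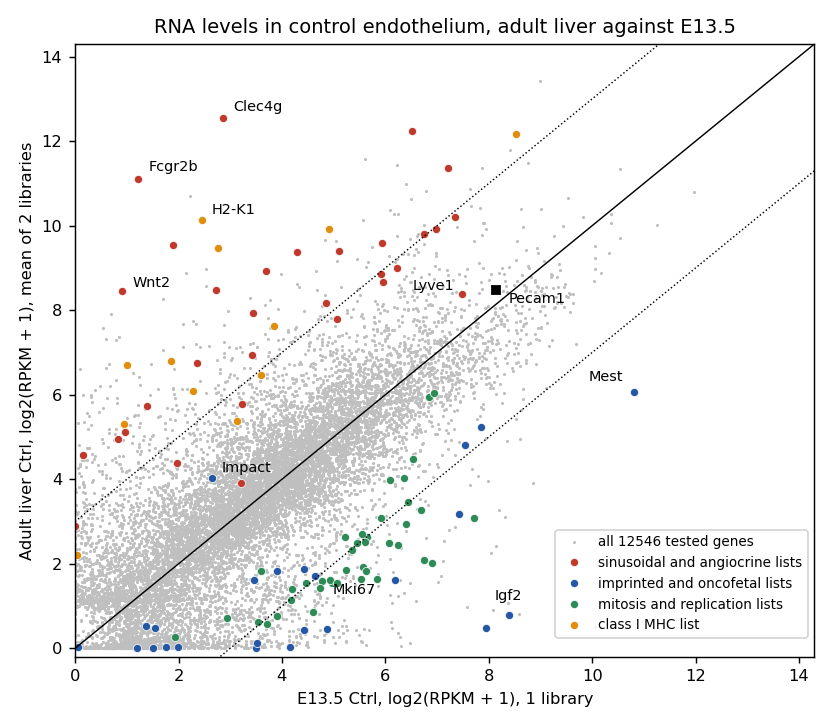
RNA level of each tested gene at E13.5 (x axis, 1 Ctrl library) and in adult liver (y axis, mean of 2 Ctrl libraries), both as log2(RPKM + 1). The solid line marks equal levels and the dotted lines an 8-fold difference; most angiocrine (9 of 11) and class I MHC genes (9 of 12) lie above the upper line, most mitosis genes (18 of 20) below the lower one, and Pecam1 close to equality.

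Among single genes the largest increases were in Fcgr2b and Clec4g. Fcgr2b, the inhibitory IgG receptor with which sinusoidal cells take up immune complexes, was at 1.32 RPKM at E13.5 and at 2167 and 2214 in liver (9.88 ± 0.19, adjusted p = 2.6e-11 by limma). Clec4g, the C-type lectin LSECtin, was at 6.28 and at 6007 and 6063 (9.70 ± 0.47), while the other 4 E13.5 libraries ranged from 6.94 to 23.7. Both were far above the all-gene median of 9.90 RPKM in liver, and below the median of 9.19 in the E13.5 Ctrl library. The remaining 10 of the 12 largest increases lay between 6.57 and 8.48. They were the fatty acid hydroxylase Cyp4b1 (3.65 to 1641 and 1683), the class I gene H2-K1, the extracellular DNase Dnase1l3, the ligand Wnt2, Tpbgl, the angiotensin-cleaving aminopeptidase Enpep (0.456 to 195 and 183), the capillary receptor Cd300lg, Adam23, the class I-like gene H2-T23 and the complement protease Masp1 (2.24 to 313 and 301).

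The largest decreases included fetal globins and growth genes. Hbb-y, an embryonic beta-globin, was at 1064 RPKM at E13.5 and at 0.404 and 0.440 in liver (−9.55 ± 0.41), and the embryonic alpha-globin Hba-x fell by 6.35. These are red-cell messages in a Ter119-negative sort, and Hbb-y ranged from 420.5 to 1142 over the other E13.5 libraries. Aplnr, the apelin receptor of sprouting and venous endothelium, was at 382 and at 0.543 and 0.977 (−7.78 ± 0.13). Among the others of the 12 were Igf2 (334 to 0.724 and 0.722), H19 (247 to 0.341 and 0.450), Itm2a (331 to 1.34 and 0.909), and Col18a1, the collagen that yields endostatin (272 to 0.733 and 1.01). Sparcl1, Afp, Gap43, Nnat and Igfbp3 completed the set, with decreases of 5.77 to 6.61.

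Every tested member of the sinusoidal list was higher in liver. All 20 were called, 19 at 2-fold or more and 11 at 8-fold or more, with a median of 3.18 against 0.02 over all tested genes. The scavenger receptor Stab2, which binds hyaluronan, was at 60.3 RPKM at E13.5 and at 828 and 705 in liver (3.64 ± 0.34). The mannose receptor Mrc1 was at 33.2 and at 679 and 674 (4.31 ± 0.30), and Dnase1l3 at 2.71 and at 738 and 753 (7.65 ± 0.44). F8, which encodes coagulation factor VIII, was at 5.57 and at 342 and 375 (5.77 ± 0.36). The receptors and secreted factors named here were thus all higher in liver, but from different fetal levels. The fetal library mixes endothelium of every organ, so fewer sinusoidal cells and less RNA per cell cannot be told apart.

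The transcription factor Gata4, needed for the discontinuous liver vessel type, was at 32.3 RPKM at E13.5 and at 223 and 220 in liver (2.74 ± 0.22). Oit3 was at 161 and at 1189 and 1157 (2.86 ± 0.31), the endocytic recycling gene Ehd3 at 147 and at 2707 and 2599 (4.16 ± 0.33), and the receptor Flt4 at 74.0 and at 527 and 490 (2.76 ± 0.16). Il1a rose from 11.9 to 457 and 515 (5.23 ± 0.36), and the fatty acid receptor Cd36 from 60.8 to 388 and 425 (2.72 ± 0.27). Many of these genes were therefore already measurable in the whole-fetus library.

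Lyve1, the hyaluronan receptor shared with lymphatic vessels and some macrophages, was the exception in size. It was at 177 RPKM in the E13.5 Ctrl library, at 104 to 229 in the other E13.5 libraries, and at 332 and 335 in liver. The groups did not overlap, but the difference of 0.91 ± 0.33 (adjusted p = 0.026 by limma) lost its call without liver replicate 1 (0.0678) or 2 (0.0708), and under 4 further alternatives.

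Comparison with the E9.5 Ctrl libraries, taken from whole embryos, places these levels in order. Here too the share of sinusoidal cells and the RNA per cell cannot be told apart. Of the 20 sinusoidal genes, 16 were higher in the E13.5 library than in both E9.5 libraries and higher again in both liver libraries (80%), against 27.3% of all tested genes. The median level went from 3.24 RPKM at E9.5 to 32.7 at E13.5 and 497 in liver. Stab2 was at 3.11 and 3.28 at E9.5 and Lyve1 at 5.96 and 6.05. For both, the ratio of E13.5 to E9.5 levels was larger than the ratio of liver to E13.5 levels. Fcgr2b, at 0.490 and 0.398 at E9.5, and Clec4g, at 3.29 and 3.10, differed from them in staying at a few RPKM through E13.5.

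**Figure D2:**
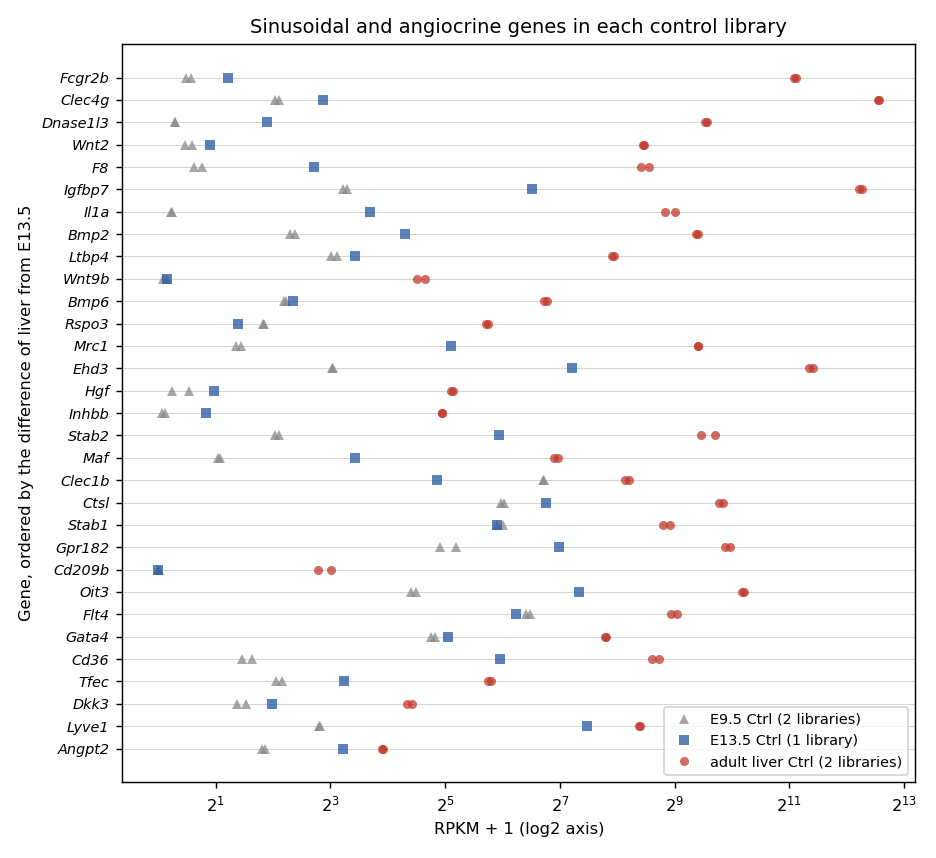
RPKM + 1 on a log2 axis for each tested sinusoidal and angiocrine gene in the 2 E9.5, 1 E13.5 and 2 adult liver Ctrl libraries, ordered by the liver minus E13.5 difference. The liver points lie to the right of the E13.5 point for every gene, from Fcgr2b (9.88) down to Angpt2 (0.69), and the 2 liver points nearly coincide.

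Signals that sinusoidal cells send to hepatocytes were also higher in liver. Of 12 angiocrine genes 11 were tested, and 11 were called higher, 10 at 2-fold or more and 9 at 8-fold or more, with a median of 4.39. Wnt2 was at 0.868 RPKM at E13.5 and at 353 and 347 in liver (7.55 ± 0.12). Wnt9b, its companion in pericentral signalling, was at 0.117 and at 24.0 and 21.9 (4.42 ± 0.11), and the Wnt enhancer Rspo3 at 1.63 and at 51.7 and 53.0 (4.34 ± 0.10). Bmp2 was at 18.6 and at 678 and 658 (5.09 ± 0.31), and Bmp6, the endothelial inducer of hepcidin, at 4.12 and at 109 and 104 (4.39 ± 0.35). The named Wnt and BMP ligands were all higher in liver, with the same limit of a mixed fetal library. Hgf rose from 0.949 to 34.3 and 33.3 (4.16 ± 0.13), Ltbp4 from 9.83 to 246 and 238 (4.49 ± 0.17) and Igfbp7 from 89.9 to 4755 and 4894 (5.73 ± 0.14). Igfbp7 and Clec4g were of comparable height in liver on the per-length scale. Angpt2, the Tie2 antagonist, had the smallest difference (8.31 to 13.8 and 14.2).

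Genes of endothelium in general differed less than the sinusoidal and angiocrine genes, but more were higher than lower. Of 24 such genes 17 were called higher and 5 lower, against 40.6% and 38.6% of all tested genes. At 2-fold or more 8 were higher and none lower, against 18.4% and 17.5% of all, and none reached 8-fold. The list median was 0.59 (0.17 with read-total scaling). The sort markers Pecam1 and Cdh5 are on this list and differed by less than 2-fold. Pecam1 (CD31) was at 280 RPKM at E13.5 and at 360 and 348 in liver (0.34 ± 0.08), and Cdh5 (VE-cadherin) at 148 and at 177 and 181 (0.27 ± 0.06). These 2 small differences turned negative with read-total scaling (−0.10 and −0.17). Kit, the third positive sort marker, was higher in liver (25.6 to 246 and 217, 3.12 ± 0.16). The VEGF receptor Kdr rose from 237 to 1125 and 1013 (2.17 ± 0.10), the TGF-beta co-receptor Eng from 167 to 996 and 1019 (2.58 ± 0.08), and the angiopoietin receptor Tek from 157 to 436 and 403 (1.41 ± 0.08). Vwf was lower in liver (25.7 to 17.8 and 17.4, −0.52 ± 0.15).

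Arterial genes divided. Of 17 tested, 5 were called higher and 10 lower, 3 and 7 of them at 2-fold or more, with a median of −0.70. The ligand Jag2 fell from 14.0 RPKM to 0.393 and 0.493 (−3.38 ± 0.11), the arterial connexin Gja5 from 13.8 to 1.14 and 1.23 (−2.76 ± 0.29), and the Notch effector Hey1 from 11.7 to 1.76 and 1.44 (−2.29 ± 0.19). Gja4 and Nrp1 went the other way, Gja4 from 34.3 to 368 and 375 (3.40 ± 0.09) and Nrp1 from 79.7 to 650 and 643 (3.01 ± 0.06). The Notch ligand Dll4 was also higher in liver (31.9 to 78.4 and 74.4, 1.23 ± 0.15). The list thus held genes with large differences in both directions. In the Notch pathway list 5 of 17 were higher and 10 lower, 4 and 6 at 2-fold or more. The glycosyltransferase Lfng (1.81 ± 0.10), Dll1 (1.49 ± 0.10) and the target Hes1 (47.1 to 202 and 194, 2.05 ± 0.13) rose. Jag1 (−1.65 ± 0.22) and the feedback gene Nrarp (53.0 to 20.8 and 19.01, −1.37 ± 0.13) fell.

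Venous and lymphatic genes also went both ways. Of 13 tested, 8 were higher and 4 lower, 5 and 4 at 2-fold or more. Ackr1, the atypical chemokine receptor of venules, was at 12.6 RPKM at E13.5 and at 188 and 194 in liver (3.82 ± 0.24), and the adhesion molecules Selp and Vcam1 rose by 3.50 ± 0.11 and 2.08 ± 0.17. The lymphatic regulator Prox1 (7.60 to 0.690 and 0.665, −2.36 ± 0.22), Pdpn (−2.56 ± 0.23) and Mmrn1 (128 to 1.91 and 1.99, −5.45 ± 0.10) fell. Lyve1 and Flt4, which lymphatic and sinusoidal cells share, were higher.

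Genes of brain endothelium and its Wnt response were the vascular-bed set with the lowest median. Of 15 tested, 13 were lower in liver and 1 was higher, 11 lower at 2-fold or more and 6 at 8-fold or more, with a median of −2.78. The blood-brain barrier glucose transporter Slc2a1 was at 280 RPKM at E13.5 and at 4.84 and 3.85 in liver (−5.72 ± 0.18). The lipid transporter Mfsd2a fell from 14.0 to 0.0436 and 0.0282 (−3.86 ± 0.29), the Wnt-responsive Apcdd1 from 37.3 to 0.402 and 0.292 (−4.83 ± 0.13), and the factor Foxf2 from 16.0 to 0.0132 and 0 (−4.08 ± 0.19). The thyroid hormone transporter Slco1c1 was at 6.33 at E13.5 and is listed at 0 in both liver libraries. A whole-fetus sort contains brain vessels and a liver sort does not, and in bulk samples fewer cells of a type and less RNA per cell cannot be told apart.

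Lung, heart and other continuous-vessel genes were split, with 6 of 18 higher and 12 lower, 6 and 8 at 2-fold or more. Tcf15 (33.3 to 0.168 and 0.228, −4.84 ± 0.19), Meox2 (−4.21 ± 0.15), Foxf1 (−3.43 ± 0.47) and the caveola gene Cav1 (396 to 49.5 and 48.3, −2.99 ± 0.14) were lower in liver. Aqp1, a water channel, was at 47.7 and at 3089 and 3037 (5.97 ± 0.28), and Gpihbp1, which carries lipoprotein lipase on capillaries, at 74.1 and at 2716 and 2831 (5.21 ± 0.08). Both were above the median liver level of the sinusoidal list (497).

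Genes of basement membrane and other matrix, with interstitial collagens and fibronectin among them, were mostly lower in liver. Of 22 tested, 16 were lower and 5 higher, 14 and 2 at 2-fold or more and 6 lower at 8-fold or more, with a median of −1.49. Fibronectin, Fn1, was at 81.8 RPKM at E13.5 and at 1.45 and 1.53 in liver (−5.05 ± 0.15), Lamb1 at 68.8 and at 1.04 and 1.15 (−5.06 ± 0.10), and Col15a1 at 36.7 and at 0.0881 and 0.125 (−5.09 ± 0.14). Nid2 fell by 3.15 ± 0.11. The main vascular collagen IV chains did not follow: Col4a1 was at 444 and at 362 and 336 (−0.35 ± 0.11) and Col4a2 at 215 and at 228 and 216 (0.04 ± 0.11, not called). The laminin chains Lama5 and Lamb2 were higher in liver (2.07 ± 0.14 and 2.17 ± 0.12). Of the interstitial collagens, Col1a1, Col1a2 and Col3a1 fell by 3.04, 2.95 and 2.58. Sprouting and hypoxia-linked tip cell genes were lower in 9 and higher in 4 of 15, 7 and 2 at 2-fold or more. Among them the ligand Apln was at 50.5 and at 1.24 and 1.82 (−4.36 ± 0.15), and Pdgfb at 19.6 and at 1.32 and 1.46 (−3.11 ± 0.21).

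**Figure D3:**
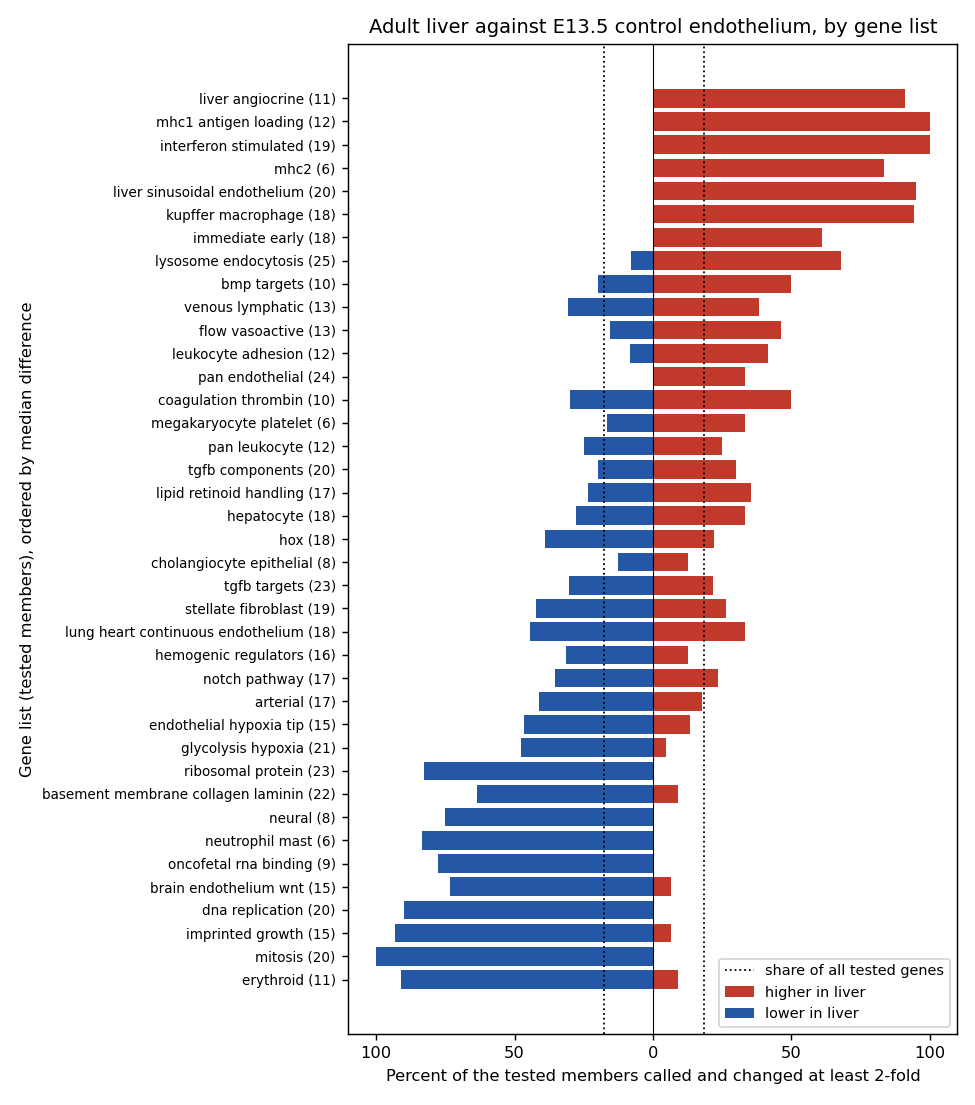
Percent of the tested members of each gene list that were called and changed at least 2-fold, higher in liver to the right and lower to the left, with lists ordered by median difference. The dotted lines mark the shares over all tested genes (18.4% higher and 17.5% lower); sinusoidal, angiocrine, MHC and interferon lists extend far to the right (19 of 19 interferon genes) and mitosis, replication and imprinted lists far to the left (20 of 20 mitosis genes).

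Cell division genes were lower in the adult cells without exception among those tested. All 20 mitosis genes were called lower, 20 at 2-fold or more and 18 at 8-fold or more, with a median of −3.43, and all 20 replication genes were lower, 18 at 2-fold or more, with a median of −2.87. The proliferation marker Mki67 was at 26.5 RPKM at E13.5 and at 1.90 and 2.101 in liver (−3.20 ± 0.08). Cyclin B1, Ccnb1, fell from 106 to 3.18 and 3.32 (−4.65 ± 0.08) and the ribonucleotide reductase subunit Rrm2 from 119 to 3.01 and 3.10 (−4.88 ± 0.07). Division messages in the liver were low but above 0 in each library. The cyclin-dependent kinase inhibitor Cdkn1a rose from 8.05 to 60.3 and 61.3 (2.77 ± 0.15).

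Imprinted growth genes were also far lower in liver. Of 17, 15 were tested and 14 were lower, all 14 at 2-fold or more and 8 at 8-fold or more, with a median of −3.39. Igf2, the fetal growth factor, fell by 7.60 ± 0.11 and its neighbour H19 by 7.48 ± 0.15. Mest was at 1782 RPKM at E13.5 and at 66.1 and 66.4 in liver (−4.73 ± 0.05), Plagl1 at 170 and at 7.29 and 8.92 (−4.24 ± 0.10), and Dlk1 at 10.3 and at 0.0130 and 0 (−3.48 ± 0.14). Members expressed from the paternal copy (Igf2, Mest) and from the maternal copy (H19) both fell. The growth-restraining cell cycle inhibitor Cdkn1c fell too (186 to 27.2 and 26.9, −2.74 ± 0.17). Impact was the one member that rose (5.22 to 15.8 and 14.9, 1.39 ± 0.11).

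The oncofetal RNA-binding set moved the same way, with 8 of 9 tested members lower, 7 at 2-fold or more. Igf2bp1 was at 16.9 RPKM at E13.5 and at 0.0261 and 0.0289 in liver (−4.13 ± 0.23), Igf2bp3 at 20.5 and at 0.366 and 0.355 (−3.98 ± 0.07), and Lin28b, the let-7 repressor, at 2.96 and at 0.0173 and 0.0168 (−1.96 ± 0.14). Lin28b had already been higher at E9.5 (17.6 and 16.0). The level of each of the 9 was lower at each later stage, against 29.3% of all tested genes. These 9 include Lin28a, whose liver difference was not called (−0.03 ± 0.12). The chromatin gene Hmga2 followed that order, from 66.8 and 65.2 through 14.0 to 2.50 and 2.57.

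Genes for presenting antigen were low in the fetus and high in the liver. All 12 class I genes were higher, 9 at 8-fold or more, with a median of 4.10. H2-K1 was at 4.46 RPKM at E13.5 and at 1105 and 1148 in liver (7.69 ± 0.10), although the 2 E13.5 libraries with 1 added Runx1 copy were at 24.3 and 25.5. The immunoproteasome subunit Psmb9 rose from 1.01 to 100.2 and 105.4 (5.69 ± 0.15), and the peptide transporter Tap1 from 0.927 to 39.1 and 38.6 (4.37 ± 0.20). H2-K1, H2-D1 and H2-T23 are close copies whose reads the counting could have split. All 6 tested class II genes were higher too, at lower levels: Cd74, the invariant chain, went from 0.375 to 45.7 and 48.5 (5.13 ± 0.15) and H2-Aa from 0.0724 to 17.97 and 21.0 (4.25 ± 0.11). Interferon-stimulated genes rose in 19 of 19, 11 at 8-fold or more, with a median of 3.88. Among them Ifit3 was at 0.398 and at 70.3 and 74.6 (5.71 ± 0.36) and Ifitm3 at 110 and at 1777 and 1858 (4.03 ± 0.10). All 19 were also higher in the E13.5 library than in both E9.5 libraries, as were 5444 of the 12546 tested genes.

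Immediate-early genes were higher in liver in 13 of 18, 11 at 2-fold or more, and none was called lower. Fos was at 238 RPKM and at 1063 and 1081 (2.17 ± 0.18), Dusp1 at 202 and at 1416 and 1401 (2.80 ± 0.13), and the heat shock gene Hspa1a at 32.6 and at 567 and 570 (4.08 ± 0.34). Hspa1a and Hspa1b are near-identical copies. These genes also respond to tissue dissociation, which the 2 sources underwent from different tissues, and its part was not tested. Flow-responsive and vasoactive genes were higher in 9 and lower in 3 of 13, 6 and 2 at 2-fold or more. The shear factor Klf2 rose from 81.1 to 421 and 425 (2.37 ± 0.13), thrombomodulin, Thbd, from 29.6 to 126 and 123 (2.03 ± 0.13) and Nos3 from 66.5 to 141 and 139 (1.06 ± 0.06). Endothelin, Edn1, fell from 18.6 to 9.56 and 7.22 (−1.07 ± 0.12).

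Lysosomal and endocytic genes were higher in 21 of 25, 17 at 2-fold or more. The protease Lgmn was at 32.1 RPKM at E13.5 and at 798 and 791 in liver (4.59 ± 0.20), cathepsin L, Ctsl, at 107 and at 872 and 916 (3.05 ± 0.07), and cathepsin B, Ctsb, at 92.9 and at 634 and 629.8 (2.75 ± 0.06). Glycolysis and hypoxia genes were lower in 16 and higher in 4 of 21, 10 and 1 at 2-fold or more. Eno1 was at 570 and at 142 and 140.0 (−2.01 ± 0.06), and Ldha at 671 and at 289 and 284 (−1.22 ± 0.06). All 23 tested ribosomal protein genes were lower, 19 at 2-fold or more, with a median of −1.41.

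For the BMP and TGF-beta pathways only RNA levels of components and targets were at hand, and signalling itself was not measured. Of 10 BMP targets 8 were higher in liver, 5 at 2-fold or more, and 2 were lower at 2-fold or more. The 8 include Hamp, which is also on the hepatocyte marker list, and the part of hepatocyte RNA was not tested. Id4 rose from 2.81 RPKM to 60.8 and 57.8 (3.99 ± 0.09), Id3 from 391 to 1301 and 1376 (1.77 ± 0.09) and the inhibitory Smad6 from 16.4 to 71.2 and 69.6 (2.04 ± 0.15). Smad7, the inhibitory SMAD of both branches, rose from 12.1 to 24.6 and 24.5 (0.97 ± 0.18). Most BMP targets were thus higher, as were the ligands Bmp2 and Bmp6, whereas Hey1 and Bambi (−1.11 ± 0.11) fell. TGF-beta targets were higher in 8 and lower in 11 of 23, and at 2-fold or more in 5 and 7. Of 20 TGF-beta components 9 were higher and 8 lower, 6 and 4 at 2-fold or more. Over all tested genes the called shares were 40.6% higher and 38.6% lower, so these counts give neither list a direction of its own. The co-receptor Tgfbr3 (19.1 to 113 and 95.8, 2.39 ± 0.14) and Tgfb1 (50.3 to 123 and 133, 1.33 ± 0.09) were up and Tgfb2 was down (−1.74 ± 0.12). The components' median of 0.08 changed sign under 3 of the scalings.

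Regulators of the endothelial-to-blood transition were called lower in 10 of 16 and higher in 4, and at 2-fold or more in 5 and 2. Runx1, the gene that the other groups of the series overexpress, was at 1.37 RPKM at E13.5 and at 1.19 and 1.53 in liver (−0.01 ± 0.12, adjusted p = 0.94 by limma), and the E13.5 value lay between the liver values. Lyl1 (5.05 to 1.63 and 1.78, −1.16 ± 0.16), Mecom (14.1 to 8.21 and 6.30, −0.88 ± 0.12) and Nfe2 (−1.64 ± 0.14) fell. Adgrg1 rose with Kit (5.52 to 72.0 and 70.1, 3.46 ± 0.14).

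Markers of other cell types changed with the groups and stand beside these results as measured values. All 18 tested Kupffer cell and macrophage markers were higher in liver, 17 at 2-fold or more, with a median of 1.90. The 20 listed markers summed to 716 and 735 RPKM in liver and to 86.6 at E13.5, and Cd163 is listed at 0 at E13.5. Fcer1g (234 and 258) and Slc40a1 (248 and 235) made up most of the liver sum, and the complement gene C1qb was at 56.4 and 53.1 against 5.80 at E13.5 (3.03 ± 0.09). Clec4f, restricted to Kupffer cells, was at 17.96 and 18.3, and the leukocyte gene Ptprc (CD45) at 0.909 and 0.967. Mrc1, Fcgr2b, Cd74, Cd36 and cathepsin genes are also expressed by macrophages, and the part of macrophage RNA in those differences was not tested.

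Hepatocyte markers went both ways, with 6 higher and 7 lower of 18, and 6 and 5 at 2-fold or more. Over all tested genes the called shares were 40.6% and 38.6%. They summed to 190 and 205 RPKM in liver and 309 at E13.5. Alb was at 42.1 and 45.6 in liver and 28.1 at E13.5 (0.62 ± 0.27, not called), and Afp, the fetal albumin-like protein, at 0.0449 and 0.0290 against 78.3 (−6.26 ± 0.17), with 14.9 to 46.3 in the other E13.5 libraries. Apoa1 was lower in liver (24.0 to 10.53 and 10.9, −1.10 ± 0.17). Hepatocyte transcripts were thus detected in both sources. Stellate cell and fibroblast markers were higher in 6 and lower in 8 of 19 tested, 5 and 8 at 2-fold or more. The 20 listed summed to 257.5 and 260.4 RPKM in liver and 198 at E13.5. Of that list Dcn was at 62.8 and 63.2 in liver against 12.5 (2.25 ± 0.37), while Col1a1, Col1a2 and Col3a1 were lower in liver. Erythroid markers were lower in 10 of 11 tested, summing to 38.3 and 37.2 against 1314. The adult globins Hbb-bs, Hbb-bt and Hba-a1 are listed at 0 in the Ctrl libraries of both sources. Whether the counting lost their reads was not tested. Neural markers were lower in 8 of 8 and summed to 8.86 and 8.395 against 64.3, with Stmn2 at 0.0820 and 0.239 against 7.36. The part of any of these cells in the differences between the 2 sources, in either direction, was not tested.

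Open chromatin was deposited as 1 peak list for each pair of ATAC libraries, so peaks have no replicate check. The liver Ctrl list held 39019 peaks over 12956467 bases and the E13.5 Ctrl list 96537 peaks over 38499148 bases. Of the liver peaks 79.7% overlapped an E13.5 peak by at least 1 base, and of the E13.5 peaks 30.4% overlapped a liver peak, leaving 7921 peaks in the liver list alone and 67204 in the E13.5 list alone. The lists differ in length and give no sequencing depth, so a peak missing from the liver list is not shown to be closed there. When the same number of top-scoring peaks was taken from each list, 63.7% of liver and 59.3% of E13.5 peaks were shared. Single-list liver peaks were weak, with a median fold enrichment of 4.31 against 6.74 for the whole liver list, as given by the authors' peak caller, and 26.5% were also in the liver 2Runx1 list, against 80.9% of shared liver peaks. Of peaks of the E13.5 list alone, 67.9% were in the E13.5 2Runx1 list and 71.1% in the E9.5 Ctrl list. For E13.5 peaks shared with liver the shares were 94.5% and 93.6%. These 2 lists are longer than the liver 2Runx1 list (80857 and 99298 against 39469 peaks), so recurrence cannot be compared directly between liver and E13.5.

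Peaks found in 1 list only lay mostly away from gene starts. Within 1 kb of a listed start were 27.5% of all liver peaks and 16.5% of all E13.5 peaks, but 2.64% of liver-only and 9.33% of E13.5-only peaks. Starts were listed for 78.8% of the tested genes, so counts at starts describe those genes alone and are void as a check of all genes. Gene spans were matched for 99.9%.

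Coordinates are mm10, the build named in the submitters' processing notes. Peaks present in both liver lists (Ctrl and 2Runx1) and in neither E13.5 list numbered 1929, a restriction chosen after the peak lists were seen. Such a peak lay within 50 kb of 115 of the 322 genes at least 8-fold higher in liver (35.7%), of 21.0% of those 2- to 8-fold higher, of 12.3% of genes not called, of 8.10% of those at least 8-fold lower, and of 13.7% of all. The share fell step by step with the RNA class. For the reverse set, 41954 peaks in both E13.5 lists and neither liver list, shares were near 90% in every class (81.4% to 95.8%). At named genes, an intragenic liver peak of Fcgr2b lay at chr1:170972838-170973257 (fold 7.09), with 3 such peaks within 50 kb of the gene. Masp1 had one at chr16:23515669-23516235 (9.46), and Bmp2 one at chr2:133591712-133592217, 29.1 kb from the gene (10.6). Of the 12 largest increases, Cyp4b1, H2-K1, Dnase1l3, Enpep, Cd300lg and H2-T23 had no such liver peak within 50 kb. Of the 12 largest decreases, Col18a1 had 20 peaks of the reverse set within 50 kb, H19 15, Sparcl1 13, Igfbp3 11, Igf2 10 and Aplnr 9. The others had fewer: Hbb-y 6, Gap43 4, Hba-x 3, Itm2a 2, Nnat 1 and Afp 0. For peaks of the E13.5 Ctrl list alone, a larger set, the mean over all tested genes was 7.05.

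At promoters, peaks in 1 list only were found in both directions. Among the 215 genes at least 8-fold lower that had a listed start, 79 (36.7%) had a promoter peak in the E13.5 Ctrl list only, against 20.9% of those 2- to 8-fold lower, 8.52% of all and 6.35% of those at least 8-fold higher. A promoter peak in the liver list only was rare, at 18 genes of 9884, and 11 of these were among the genes at least 8-fold higher (4.37% of them, against 0.182% of all). The 11 included Clec4g, Casp1, Il1a, Hdc, Ceacam1 and Clec1b. Most genes of each class had a promoter peak in both lists (69.8% of the 8-fold higher, 56.7% of the 8-fold lower).

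**Figure D4:**
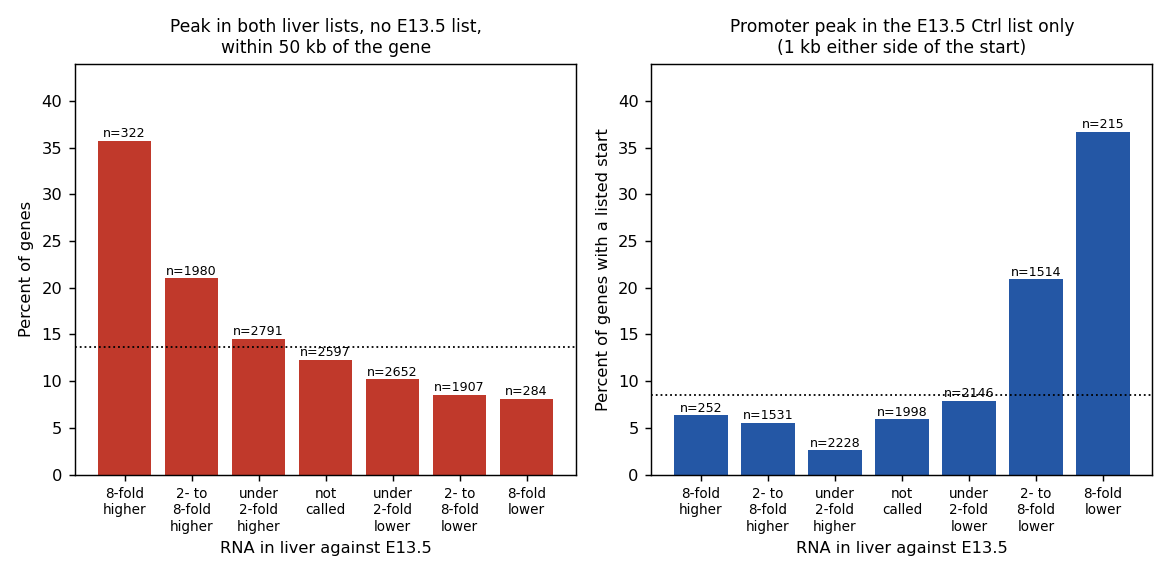
Percent of genes with a peak near, by class of RNA difference. Left, genes with a peak in both liver lists and no E13.5 list within 50 kb, falling from 35.7% of genes at least 8-fold higher in liver to 8.10% of those at least 8-fold lower; right, genes with a promoter peak in the E13.5 Ctrl list only, at 6.35% of genes at least 8-fold higher, 2.60% of those under 2-fold higher and 36.7% of those at least 8-fold lower. Dotted lines mark all tested genes (13.7% and 8.52%) and n gives the genes in each class.

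Promoters are printed here because their peak was in 1 list only and their RNA differed most among such genes, 3 in each direction. Each is the 250 bases before the RefSeq start (GRCm38.p6), 5′ to 3′ on the gene's strand, with matches to the GATA letters GATAAG or AGATAA and the ETS letters CCGGAA or AGGAAG, on either strand, in capitals. The Clec4g window is chr8:3720652-3720901 (minus strand), Casp1 chr9:5298267-5298516 (plus) and Il1a chr2:129309973-129310222 (minus), each with a peak in the liver list only. The Igf2 window is chr7:142666817-142667066, Itm2a chrX:107403361-107403610 and Col18a1 chr10:77166531-77166780 (all minus), each with a peak in the E13.5 list only.
Clec4g: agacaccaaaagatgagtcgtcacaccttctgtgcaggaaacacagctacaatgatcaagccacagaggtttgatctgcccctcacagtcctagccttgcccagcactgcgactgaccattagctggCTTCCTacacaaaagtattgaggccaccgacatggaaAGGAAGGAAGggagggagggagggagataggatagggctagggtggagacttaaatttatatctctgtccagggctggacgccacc
Casp1: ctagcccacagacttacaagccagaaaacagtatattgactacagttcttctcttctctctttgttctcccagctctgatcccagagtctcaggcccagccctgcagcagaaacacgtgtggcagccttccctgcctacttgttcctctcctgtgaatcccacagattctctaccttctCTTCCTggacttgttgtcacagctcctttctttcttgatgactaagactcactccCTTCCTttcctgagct
Il1a: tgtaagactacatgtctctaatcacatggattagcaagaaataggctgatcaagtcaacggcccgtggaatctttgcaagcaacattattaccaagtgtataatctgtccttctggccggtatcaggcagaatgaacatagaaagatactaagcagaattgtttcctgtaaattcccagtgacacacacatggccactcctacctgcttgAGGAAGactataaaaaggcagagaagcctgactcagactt
Igf2: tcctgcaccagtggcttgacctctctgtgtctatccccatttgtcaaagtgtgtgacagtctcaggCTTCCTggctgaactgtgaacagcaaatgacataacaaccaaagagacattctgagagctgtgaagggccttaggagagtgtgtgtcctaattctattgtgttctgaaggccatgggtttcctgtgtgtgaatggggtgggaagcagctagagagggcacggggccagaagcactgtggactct
Itm2a: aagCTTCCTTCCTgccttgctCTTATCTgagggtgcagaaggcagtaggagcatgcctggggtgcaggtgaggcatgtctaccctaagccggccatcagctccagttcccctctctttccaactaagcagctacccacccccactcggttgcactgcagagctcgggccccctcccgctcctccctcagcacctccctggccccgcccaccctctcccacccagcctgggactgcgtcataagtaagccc
Col18a1: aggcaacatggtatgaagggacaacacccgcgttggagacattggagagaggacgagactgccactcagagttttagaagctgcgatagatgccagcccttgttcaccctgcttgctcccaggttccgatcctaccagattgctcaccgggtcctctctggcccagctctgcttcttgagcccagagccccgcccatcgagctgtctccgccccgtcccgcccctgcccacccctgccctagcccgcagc

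The ETS letters occurred 3 times before Clec4g, 2 times before Casp1 and once before Il1a, and 1, 2 and 0 times before Igf2, Itm2a and Col18a1. The GATA letters occurred only before Itm2a, as 2 overlapping matches within a single marked stretch. Of 8 motifs searched on both strands, these were the GATA and ETS ones, and their letters are common: of 12507 such windows of tested genes 5500 held an ETS match and 1085 (8.68%) a GATA match. Among windows of genes at least 8-fold higher in liver the shares were 39.7% and 12.1%, and among those at least 8-fold lower 33.8% and 6.46%. The AP1 letters TGANTCA were in 9.21% of the former windows, 5.32% of the latter and 4.35% of all those of tested genes. The other motifs searched were SOX (ACAAAG or ACAATG), RUNX (TGTGGT), MEF2 (CTAAAAA), TEAD (GGAATG) and the E-box (CAGCTG or CACGTG), in 2.27% to 19.1% of the windows of tested genes. The liver peak of Il1a had its summit 52 bases before the start (fold 11.3) and that of Clec4g 9 bases before (5.37), while the E13.5 peaks of Itm2a and Igf2 had theirs 144 and 110 bases before (13.2 and 6.97). Casp1, the inflammatory caspase, was at 0.256 RPKM at E13.5 and at 53.7 and 57.9 in liver.

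The same organ and age difference was measured in 4 other libraries, from liver and E13.5 endothelium in which Cre had switched on 2 knock-in copies of Runx1. The libraries contrasted here are not those of the Ctrl contrast, but they carry added Runx1 and are no exact repeat. Both contrasts also take their error from the same fit over 13 libraries, so their calls are not independent. With added Runx1, 81.3% of tested genes were called and 31.7% were called at 2-fold or more. Of 4494 genes called at 2-fold or more in Ctrl, 4434 (98.7%) were called in the same direction, and of 606 at 8-fold or more, 603 (99.5%). Of the 3982 genes called at 2-fold or more with added Runx1, 3918 (98.4%) were called in the same direction in Ctrl. List medians were close for the sinusoidal (3.16 against 3.18), angiocrine (4.30 against 4.39) and imprinted genes (−3.31 against −3.39). They were further apart for the interferon-stimulated list (2.79 against 3.88) and the erythroid markers (−2.90 against −3.98).

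A test of the difference between the 2 comparisons called 1392 genes (11.1%), 1029 of them with a larger liver minus E13.5 value with added Runx1 (8.2%) and 363 with a smaller one (2.89%). At 2-fold or more 238 were larger (1.9%) and 42 smaller (0.335%). Without liver 2Runx1 replicate 2 the total was 811, and without liver Ctrl replicate 1 it was 848. Of all the lists, the medians of the division lists differed most: the median was −1.79 with added Runx1 against −3.43 for mitosis, and −1.34 against −2.87 for replication. Mki67 was at 8.60 and 8.94 RPKM in the liver 2Runx1 libraries, above the 1.90 and 2.101 of liver Ctrl, and at 22.98 and 24.8 in the E13.5 2Runx1 libraries (difference 1.85). Ackr1 was the opposite case. It was at 18.3 and 19.03 in liver 2Runx1, an order of magnitude below liver Ctrl, and at 10.98 and 17.4 at E13.5, so that its rise of 3.82 in Ctrl was 0.40 there.

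**Figure D5:**
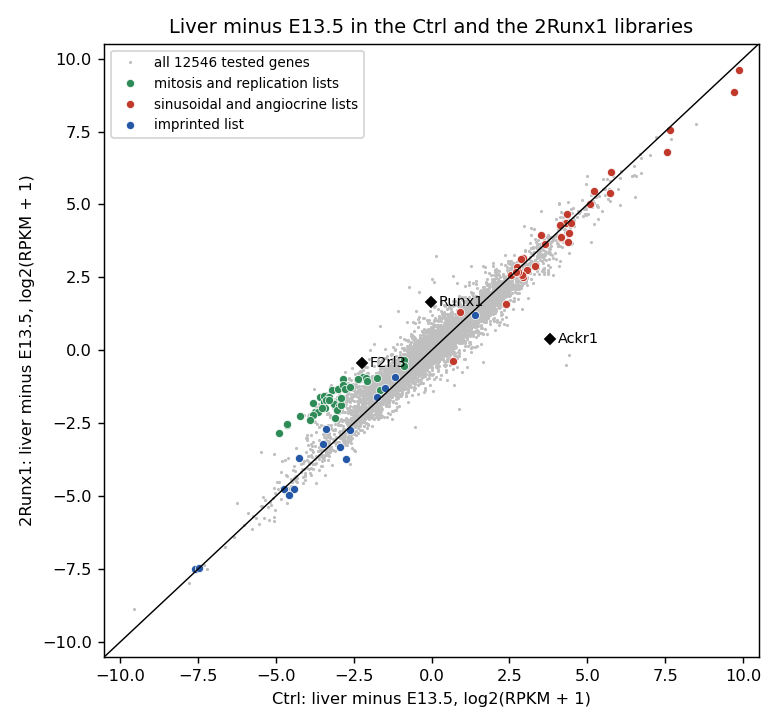
Liver minus E13.5 difference of each tested gene in log2(RPKM + 1), in Ctrl libraries (x axis) and in 2Runx1 libraries (y axis), with the line of equality. Most genes lie along the line, division genes lie above it (median −1.79 against −3.43 for mitosis) and Ackr1 lies far below it (0.40 against 3.82).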

How the data were processed

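RNA levels were deposited by the authors as RPKM per gene with a library scaling factor. The values were whole multiples of 1 read for 100% of genes above 0 (tolerance 0.001 reads), so read totals and an added limma-voom fit were computed on recovered reads. The submitters' processing notes name STAR 2.7.3a, Subread 2.0.0 with featureCounts, edgeR, Bowtie2 2.3.5.1 and MACS2 2.1.4, and builds GRCm38 and mm10, without roles or order. Libraries were made with Nextera XT, per the labels' protocols, which does not mark strand, so a gene and its antisense partner cannot be told apart. Peak fold enrichment (a ratio), −log10 q and display score were deposited by the authors as 1 list per group, and whether ATAC reads were shifted is not stated by those notes or labels. Peak and summit columns were read as the MACS2 layout, from the values.

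Genes with at least 1 RPKM in at least 2 of 13 libraries were tested with limma 3.58.1 in R 4.3.3 on log2(RPKM + 1), with 7 group means, an intensity trend, two-sided p and Benjamini-Hochberg adjustment (6 residual and 4.3 prior degrees of freedom). The fold on this scale understates the change of low genes. Because E13.5 Ctrl has 1 library, its variance was borrowed from the remaining groups. The fit was also run on simulated reads with the same dispersion in every library and few changed genes. That run cannot show how the fit behaves where E13.5 libraries vary more or most genes differ. Named genes were the 12 largest called increases and decreases that held without each liver library, up to 8 called members per list, up to 4 markers of other cell types and the sort markers, with Casp1, Hdc, Ceacam1 and some list members added after their values were seen. Members and lists were chosen with earlier results of these data known. No per-sample column was left unmapped (0). Promoters came from RefSeq (GRCm38.p6).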

Additional observations from a re-analysis of the deposited data

Results flagged for a closer look

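For 17 genes named by the rule, the liver minus E13.5 difference with 2 added Runx1 copies differed from that in Ctrl by at least 1.5 on the log2 scale, tested as an interaction in limma (adjusted p below 0.05). Values are the difference with added Runx1 minus the difference in Ctrl. Ackr1 had the only negative value (−3.41 ± 0.30). Runx1 itself, which these libraries overexpress, had 1.68, and the thrombin receptor gene F2rl3 had 1.80: it was at 6.46 RPKM at E13.5 and at 0.548 and 0.622 in liver in Ctrl, and at 11.5 and 11.6, and 8.96 and 7.68, with added Runx1. The other 14 are division genes. Among mitosis genes the values were 1.51 for Birc5, 1.52 for Aurkb, 1.59 for Plk1, 1.65 for Bub1, 1.85 for Mki67, 1.99 for Top2a, 2.01 for Ccna2, 2.09 for Ccnb1 and 2.12 for Ube2c. Among replication genes they were 1.54 for Gins2, 1.62 for Cdc45, 1.67 for Mcm5, 1.95 for Uhrf1 and 2.04 for Rrm2.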

How the results depend on the processing

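The calls of 278 named genes were recomputed under 14 settings (3872 values): 3836 kept direction and side of the threshold, 17 lost the call, 14 gained one, 3 moved and 2 reversed. The reversals were Cdh5 (−0.17) and Pecam1 (−0.10) with scaling by read total only. Lyve1 had adjusted p of 0.0529 with E13.5 and liver libraries only, 0.0728 with no filter on low values, 0.082 with quantile normalization and 0.203 with read-total scaling. The cause was not tested. Without 1 liver Ctrl library the count of called genes was 9484 to 9511 (4865 to 4866 higher, 4619 to 4645 lower). With the replicate number as a block it was 9846, and no more than 1.5 times off under any other setting run (7898 to 11909). Replicate numbers did not pair the libraries: correlations of same-numbered deviations were −0.061 to 0.107, and E13.5 Ctrl had 1 library. The interaction count was less stable. Leaving out 1 library gave 811 to 1583 called, 647 to 1097 higher and 162 to 548 lower, and at 2-fold or more 38 to 79 lower; with the block it was 1385. The shares of liver and E13.5 peaks in both lists were 45.1% and 18.2% with reciprocal overlap of at least 50% of each peak, 91.0% and 28.5% at −log10 q of at least 5, and 63.7% and 59.3% for equal numbers of top peaks. Motifs in peaks were not analysed here. With 1 E13.5 Ctrl library, no error of that group could be measured, and peak lists carry no depth.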

Other observations

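Hox genes, which encode position along the body axis, differed in both directions. Of 35 genes 18 were tested, with 7 called higher in liver and 8 lower, and a median of −0.12, beside 40.6% higher and 38.6% lower over all tested genes. Among the members that rose, Hoxa5 was at 8.03 RPKM at E13.5 and at 25.2 and 26.9 in liver (1.58 ± 0.22). Hoxb5 was at 2.66 and at 11.9 and 12.9 (1.87 ± 0.16), and Hoxa2 at 1.40 and at 6.28 and 7.15 (1.68 ± 0.13). Among the members that fell, Hoxd8 was at 13.8 and at 0.174 and 0.0842 (−3.72 ± 0.12). Hoxd9 was at 3.26 and at 0 and 0.0144 (−2.08 ± 0.18), and Hoxa9 at 2.48 and at 0.0193 and 0.00938 (−1.78 ± 0.24). Of the 35, 16 are listed at 0 in both liver libraries and 1 at E13.5. Whether the direction follows position in the cluster was not tested, and the members named were picked with their values known.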
